A study of Mus musculus and Sus scrofa with 18 samples.

Results

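The activity-induced immediate early genes examined here are Fos, Fosb, Junb, Egr1, Egr2, Egr3, Egr4, Arc, Nr4a1 and Npas4, which neurons switch on within minutes of synaptic input. They were taken by symbol, as a set known to respond to activity, and each symbol was mapped to 1 Ensembl gene of the mouse count file. Earlier results of these data were known when the 10 genes and the gene lists used below were chosen. All 10 are among the 55357 genes of that file, and all 10 passed the filter on low counts, which left 19463 genes to test. By the GENCODE M21 annotation Fos (ENSMUSG00000021250) lies on chromosome 12, Fosb (ENSMUSG00000003545) on 7, Junb (ENSMUSG00000052837) on 8, Npas4 (ENSMUSG00000045903) on 19 and Egr1 (ENSMUSG00000038418) on 18. Egr2 (ENSMUSG00000037868) lies on chromosome 10, Egr3 (ENSMUSG00000033730) on 14, Egr4 (ENSMUSG00000071341) on 6, and Arc (ENSMUSG00000022602) and Nr4a1 (ENSMUSG00000023034) both on 15. RNA came from the striatum of 9 mice, with 3 mice in each of 3 groups, and it was sequenced from the 3′ end of polyadenylated transcripts. A second set of libraries, from pig striatum, was not analysed here.

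WT mice carried no knock-in allele and received AAV-Ctrl gRNA without CasRx. The 2 other groups were heterozygous HD 140Q-KI mice, in which the endogenous Htt gene carries exon 1 of human HTT and an expanded CAG tract. Untreated mice received AAV-CasRx/Ctrl gRNA and Treated mice received AAV-CasRx/HTT gRNAs. CasRx is an RNA-cutting CRISPR nuclease, here driven by the ubiquitous CAG promoter, and the gRNAs were driven by U6. All vectors were AAV9, injected into the striatum at 6 months of age, and tissue was taken 1.5 months later. The WT group lacked CasRx as well as the knock-in allele, so in any comparison of Untreated or Treated mice with WT the allele and CasRx cannot be told apart. Treated and Untreated mice differ by design in the gRNAs alone.

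Immediate early genes need no new protein for their own transcription. Calcium entry and dopamine receptor signalling activate kinases that phosphorylate CREB and the partners of SRF on factors already bound to these promoters, and the transcripts rise and decay within about an hour. In striatal projection neurons, dopamine acting on D1 receptors and glutamate from the cortex are the main drivers, and the levels in dissected tissue also depend on what an animal did shortly before death. Fos, Fosb and Junb encode subunits of AP-1, Egr1 to Egr4 encode zinc finger factors, Nr4a1 encodes an orphan nuclear receptor, Npas4 encodes a neuron-specific factor induced by calcium, and Arc encodes a synaptic protein that promotes removal of AMPA receptors.

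The promoter stretches below show CREB elements of Egr2, Nr4a1 and Npas4, which fell in Untreated mice, and of Fos, the classical member of the set. For Egr2 an SRF element is shown as well. The stretches are parts of RefSeq promoter windows of build GRCm38.p6, read 5′ to 3′ on the gene's strand. The core CRE (TGACG, or CGTCA where it lies on the other strand) and the CArG box are in capitals. The Nr4a1 window holds 4 core CREs, and those at -233 and -213 lie outside the stretch shown. Egr2 is shown from chr10:67537746-67537830 (plus strand, -184 to -100 from the last of its 5 listed start sites), Nr4a1 from chr15:101266765-101266822 (plus strand, -81 to -24), Npas4 from chr19:4990129-4990157 (minus strand, -186 to -158, overlapping 2 exon entries of GENCODE M21) and Fos from chr12:85473749-85473840 (plus strand, -141 to -50).
Egr2: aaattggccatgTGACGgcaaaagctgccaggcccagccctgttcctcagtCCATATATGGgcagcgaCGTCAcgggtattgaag
Nr4a1: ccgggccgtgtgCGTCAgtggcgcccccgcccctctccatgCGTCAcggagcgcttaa
Npas4: cgttcgaCGTCAcgggaTGACGtcggaag
Fos: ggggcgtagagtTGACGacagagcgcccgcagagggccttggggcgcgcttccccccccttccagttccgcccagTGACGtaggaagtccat
The windows, which reach from 250 bases before to 50 after each start site, matched 7 of the 10 genes by symbol, namely Fos, Fosb, Junb, Egr2, Egr4, Nr4a1 and Npas4. All 7 held at least 1 core CRE on either strand, against 23.0% of the 27025 genes with a window and 20.8% of the 32851 windows. The CArG box was matched in Egr2, and 1.81% of genes held one. Elements further upstream than these windows were not searched, so a gene without a match here, such as Fos, may hold one there. The Egr site (GCGTGGGCG or GCGGGGGCG) was matched in Fosb and Nr4a1, against 3.93% of genes, and TATAAA in Fos and Junb, against 15.7%. The full CRE (TGACGTCA, which contains the core CRE on both strands) and the AP-1 site (TGACTCA) were not in these 7 windows, and 2.03% and 5.95% of genes held them.

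The libraries held from 27184356 to 32102121 counts. The shallowest of the 10 genes was Egr2, with at least 184 counts in each library, and Egr1 reached 12836. Values are CPM, counts divided by the library's total on the scale of 1e+06 counts after TMM correction, which are comparable between mice but not between genes. Htt, the targeted gene, read 189, 191 and 182 CPM in WT mice 1 to 3, 145, 140 and 150 CPM in Untreated mice and 140, 130 and 136 CPM in Treated mice. It was therefore lower in all 6 knock-in mice than in WT (adjusted p = 0.00656 for Untreated and 0.00425 for Treated mice, edgeR), and the 2 knock-in groups did not differ past the threshold (log2 fold change -0.10 ± 0.06 (SE), adjusted p = 0.942). These counts pool the normal and the knock-in allele, whereas the gRNAs were designed against the human exon. The paper measured the mutant transcript by RT-qPCR and reports it as lower in Treated than in Untreated mice. The counts here include that transcript and give the change in total Htt, but not that of the mutant transcript alone. Y-linked genes gave 3435 to 5005 counts in 4 libraries, those of the 3 WT mice and Untreated mouse 1, and 0 in the other 5, so WT and Treated mice differ completely in Y-linked signal. Untreated mouse 3 stood apart from the other Untreated mice in immune markers, with 19.1 CPM of the T cell gene Cd8a against 1.16 and 2.75 CPM, and 982 CPM summed over 8 microglia markers against 402 and 456 CPM.

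**Figure D1:**
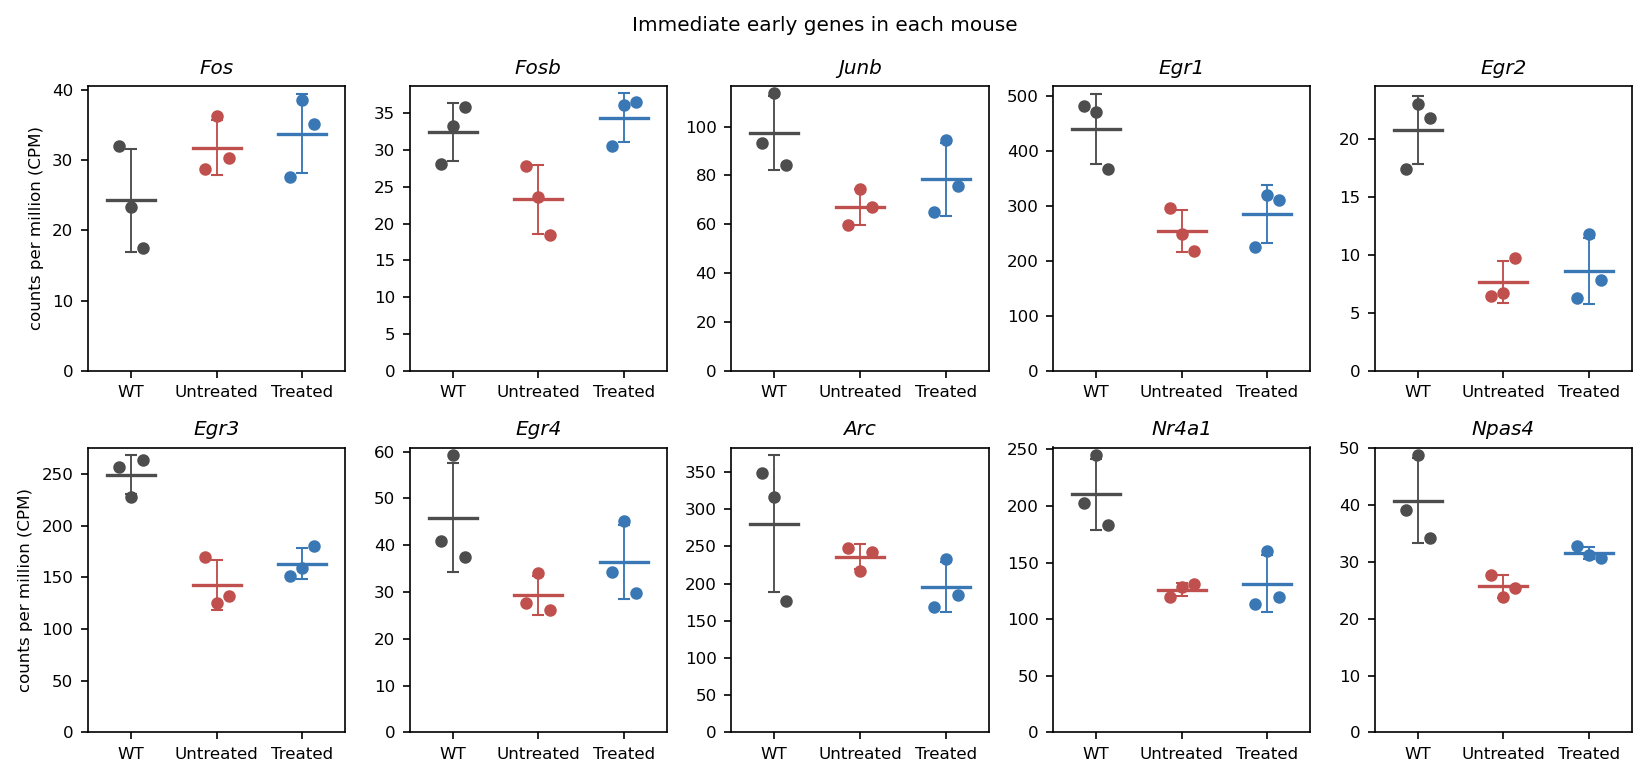
CPM of the 10 immediate early genes (vertical axes, each from 0) in WT, Untreated and Treated mice. Points are single mice, the long bar is the group mean and the error bar is the SD over 3 mice. Egr1, Egr2, Egr3, Nr4a1 and Npas4 lie lower in all 6 knock-in mice than in any WT mouse, Fosb of Treated mice lies with WT, and Fos does not lie below WT.

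Against WT mice, Untreated mice had lower levels of 5 of the 10 genes, with Egr2 the most reduced. A gene was called when its p from the quasi-likelihood test of edgeR, adjusted by Benjamini-Hochberg over all 19463 genes, was below 0.05. By that rule 5 of the 10 genes fell, Egr1, Egr2, Egr3, Nr4a1 and Npas4, and none rose, while 6.1% of all tested genes fell and 4.58% rose. The median log2 fold change of the 10 genes was -0.66, against 0.02 over all tested genes. In 8 of the 10 genes every Untreated mouse lay below every WT mouse, a pattern that 15.1% of all tested genes showed in that direction. Since the set was chosen with earlier results known, these shares, and those of the lists below, are descriptions and not an independent test.

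Among the Egr family, Egr2 read 17.4, 22.9 and 21.8 CPM in WT mice 1 to 3 and 6.46, 6.72 and 9.75 CPM in Untreated mice 1 to 3. The groups were far apart, with even the highest Untreated mouse well under the lowest WT mouse. The fitted level was 36.9% of WT, with a log2 fold change of -1.44 ± 0.25 (SE) and an adjusted p of 0.00932. Egr2, known for its part in myelination and in T cells as well as in neurons, was the 1 gene of the 10 that also met the DEG rule of an unadjusted P below 0.05 and a change of at least 2-fold, which 2.58% of tested genes met in that direction.

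Egr1, the most studied member of the family and a regulator of synaptic plasticity genes, read 482, 471 and 366 CPM in WT mice and 295, 249 and 219 CPM in Untreated mice. WT mouse 3 was the lowest of its group and was still above all 3 Untreated mice. The log2 fold change was -0.79 ± 0.17 (SE), adjusted p = 0.0201. Egr3, known for its role in muscle spindle development as well as in neurons, read 257, 228 and 263 CPM in WT mice and 170, 125 and 132 CPM in Untreated mice. Here the WT mice were close together and Untreated mouse 1 was the nearest to them. Egr3 was at 57.1% of WT, with a log2 fold change of -0.81 ± 0.12 (SE) and the lowest adjusted p of the 10 genes, 0.00497. Egr4 read 41.0, 59.2 and 37.6 CPM against 27.6, 34.1 and 26.2 CPM, without overlap between the groups. Its log2 fold change was -0.65 ± 0.20 (SE) and did not pass the threshold (adjusted p = 0.0715).

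The nuclear receptor Nr4a1, also called Nur77 and long used as a readout of dopamine signalling in the striatum, read 203, 245 and 183 CPM in WT mice and 119, 128 and 131 CPM in Untreated mice. The Untreated mice were almost level with each other and all below WT. Nr4a1 was at 59.9% of WT, with a log2 fold change of -0.74 ± 0.14 (SE) and an adjusted p of 0.0146. Npas4, which adjusts inhibitory synapses after activity, read 39.1, 48.8 and 34.2 CPM against 27.7, 23.8 and 25.4 CPM. Every Untreated mouse was below the lowest WT mouse, and the log2 fold change was -0.67 ± 0.13 (SE), adjusted p = 0.0149.

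The AP-1 subunits did not move as 1 group. Fos, the classical activity marker, read 32.0, 23.3 and 17.4 CPM in WT mice and 28.8, 36.2 and 30.2 CPM in Untreated mice. The groups overlapped, since WT mouse 1 was within the Untreated range, and the log2 fold change was 0.39 ± 0.21 (SE), adjusted p = 0.26. Fosb, whose spliced product ΔFosB builds up on repeated stimulation, read 28.1, 33.3 and 35.8 CPM against 27.9, 23.6 and 18.4 CPM. Untreated mouse 1 reached almost the lowest WT mouse, and the log2 fold change of -0.48 ± 0.16 (SE) did not pass the threshold (adjusted p = 0.0831). Junb, a partner of Fos proteins, read 93.5, 114 and 84.4 CPM against 59.8, 74.3 and 67.3 CPM, without overlap, and its log2 fold change was -0.53 ± 0.15 (SE), adjusted p = 0.0549. Reads of the ΔFosB and full-length Fosb transcripts were counted together.

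Arc, the synaptic effector, read 349, 317 and 176 CPM in WT mice and 248, 217 and 243 CPM in Untreated mice. WT mouse 3 lay below all Untreated mice, so the groups overlapped although the mean was lower in Untreated mice (236 ± 16.6 CPM against 281 ± 91.9 CPM, SD, n = 3). The log2 fold change was -0.25 ± 0.22 (SE), adjusted p = 0.507.

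The number of genes called in Untreated mice depended on single libraries and on the model. It was 3 without Untreated mouse 2, 4 without Untreated mouse 3, 8 with DESeq2, and 2 (Egr2 and Egr3) with the share of Y-linked counts as a covariate. Egr1 lost its call without WT mouse 2 or without Untreated mouse 2 or 3, and Npas4 without Untreated mouse 2, whereas Fosb gained one without Untreated mouse 1 and Junb without Treated mouse 2. Within the libraries that held Y-linked counts the comparison rests on 1 Untreated mouse. That mouse lay below all 3 WT mice in 8 of the 10 genes, the same 8 in which every Untreated mouse did. The count thus follows from the one given above and adds no separate check. The share of all tested genes with that pattern was not computed, so this count has no background to be read against. The part of sex in the calls was not tested.

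**Figure D2:**
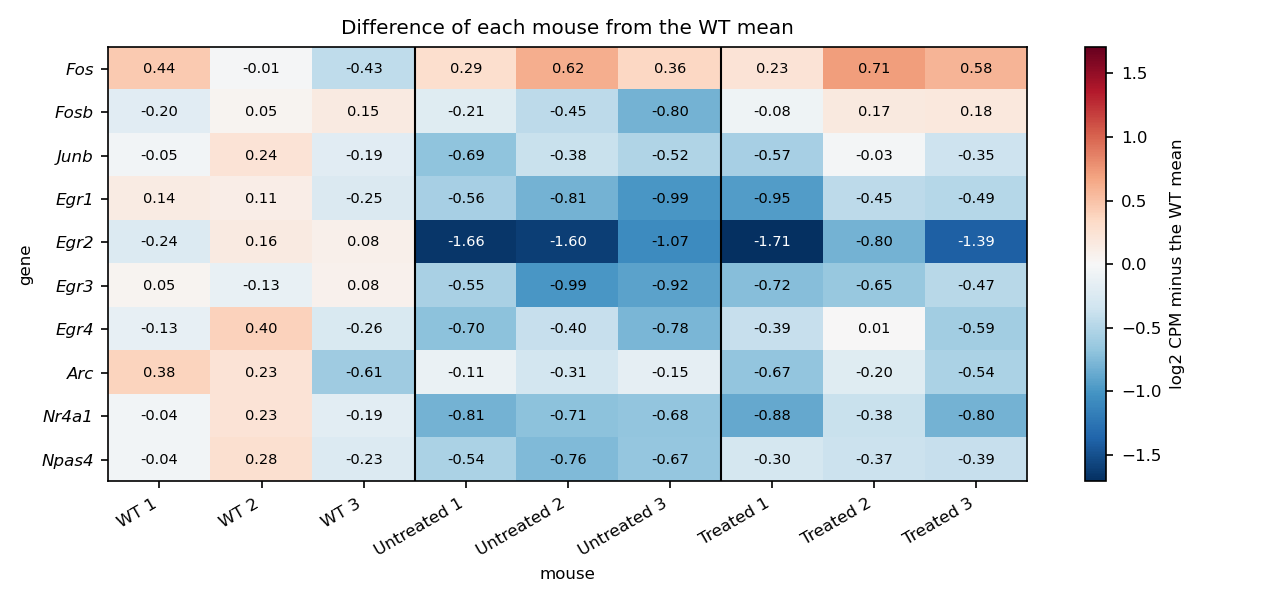
Log2 CPM of each gene (rows) in each mouse (columns) minus the mean of the 3 WT mice, printed in every cell and coloured blue below and red above WT. Egr2 is the darkest row, from -0.80 to -1.71 in the 6 knock-in mice, and Fos is above the WT mean in all 6.

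Against WT mice, Treated mice had lower levels of 3 of the 10 genes. Egr2, Egr3 and Nr4a1 fell and none rose, so 3 of the 10 genes were called, where 2.78% of all tested genes fell and 0.904% rose. The median log2 fold change of the 10 genes was -0.44, against 0.00 over all genes. In 5 genes, Egr1, Egr2, Egr3, Nr4a1 and Npas4, every Treated mouse was below every WT mouse, as in 15.1% of all tested genes. These values use the same 3 WT mice as the comparison above.

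Egr2 read 6.25, 11.8 and 7.79 CPM in Treated mice 1 to 3, all below the lowest WT mouse at 17.4 CPM. It was at 41.5% of WT, with a log2 fold change of -1.27 ± 0.25 (SE) and an adjusted p of 0.026, and it again was the 1 DEG among the 10 genes, with 1.38% of tested genes meeting that rule in that direction. Egr3 read 151, 159 and 180 CPM, below the WT minimum of 228 CPM, with a log2 fold change of -0.61 ± 0.12 (SE), adjusted p = 0.0284. Nr4a1 read 114, 160 and 120 CPM, and Treated mouse 2 came nearest to the WT minimum of 183 CPM. Its log2 fold change was -0.68 ± 0.14 (SE), adjusted p = 0.0337.

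The remaining factors did not pass the threshold in Treated mice. Egr1 read 225, 320 and 311 CPM, below the WT range, with a log2 fold change of -0.62 ± 0.17 (SE) and an adjusted p of 0.0707. Npas4 read 32.7, 31.1 and 30.7 CPM, 3 values within a narrow range just under the WT minimum of 34.2 CPM, with a log2 fold change of -0.37 ± 0.13 (SE), adjusted p = 0.136. Both genes therefore stood clear of WT in these mice without reaching the adjusted threshold.

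Junb, at 64.9, 94.4 and 75.9 CPM, and Egr4, at 34.4, 45.2 and 29.8 CPM, overlapped with WT. Their log2 fold changes were -0.31 (95% interval -0.65 to 0.03) and -0.33 (-0.78 to 0.12). Fosb read 30.5, 36.1 and 36.4 CPM, within or just above the WT range of 28.1 to 35.8 CPM, and its log2 fold change was 0.09 (95% interval -0.27 to 0.44, adjusted p = 0.796). Fos read 27.5, 38.5 and 35.1 CPM, so 2 Treated mice were above the highest WT mouse, and its log2 fold change was 0.48 ± 0.21 (SE), adjusted p = 0.232. Arc read 169, 234 and 185 CPM, and its log2 fold change was -0.52 ± 0.22 (SE), adjusted p = 0.22. Without WT mouse 3, the lowest WT mouse for Arc, it was -0.76 with an adjusted p of 0.0273.

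The calls against WT in Treated mice depended on single libraries. No gene of the 10 passed the threshold without WT mouse 2, without Treated mouse 1 or without Treated mouse 3, nor when every gene with a count was tested, nor with the share of Y-linked counts as a covariate. Egr2 and Egr3 also lost their calls without WT mouse 3, Egr3 without Treated mouse 2 and Nr4a1 without Untreated mouse 2, while Egr1 gained one without Untreated mouse 3. The fitted log2 fold changes of Egr2, Egr3 and Nr4a1 stayed below 0 in each of these settings, from -1.58 to -0.24. Since WT mice all had Y-linked counts and Treated mice had none, sex and group cannot be told apart in this comparison. The fit with the covariate rests almost wholly on Untreated mouse 1, the only knock-in mouse with Y-linked counts. Over all genes that fit left 5 calls in place of 718, so the loss of calls was not particular to the 10 genes.

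**Figure D3:**
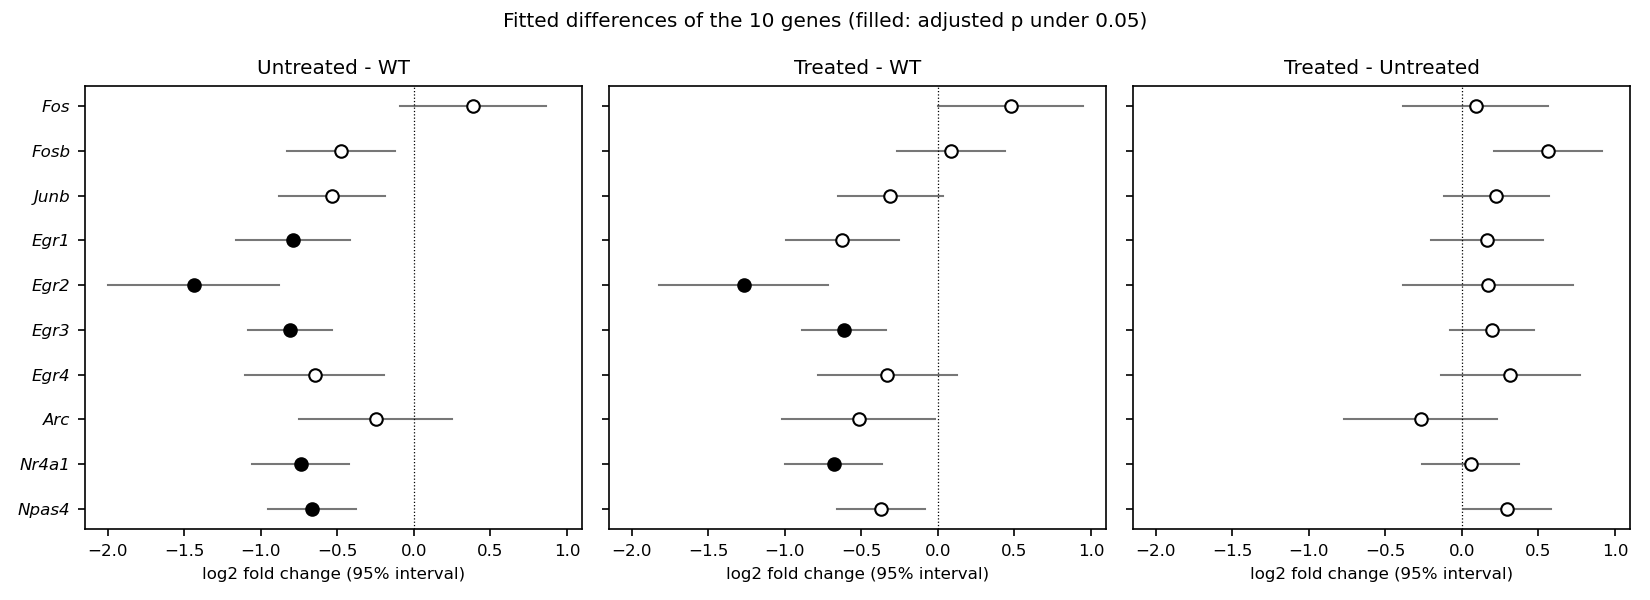
Fitted log2 fold changes (horizontal axis) of the 10 genes in the 3 comparisons, with 95% intervals as lines and genes past an adjusted p of 0.05 as filled points. Filled points lie below 0 for 5 genes in Untreated against WT and for 3 in Treated against WT, and there is none in Treated against Untreated.

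Whether HTT gRNAs changed these genes was asked by comparing Treated with Untreated mice, which both carried the allele and CasRx. None of the 10 genes passed an adjusted p of 0.05 with edgeR, nor did any with DESeq2, and 0.0% of all tested genes passed with edgeR. At an unadjusted P below 0.05 there were 2 of the 10 genes, Fosb and Npas4, against 5.5% of all tested genes, and none was a DEG, against 0.771%. The fitted difference was above 0 in 9 genes and below 0 in Arc, with a median of 0.18 against -0.01 over all genes. This median ran from 0.08 to 0.29 when each mouse was left out in turn.

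Fosb differed the most. All 3 Treated mice (30.5 to 36.4 CPM) were above all 3 Untreated mice (18.4 to 27.9 CPM), and the mean was 34.4 ± 3.33 CPM against 23.3 ± 4.73 CPM (SD, n = 3). The log2 difference was 0.56 (95% interval 0.21 to 0.91), unadjusted P = 0.00546 and adjusted p = 0.824 in edgeR. Npas4 was the other gene without overlap, with 30.7 to 32.7 CPM in Treated and 23.8 to 27.7 CPM in Untreated mice, a log2 difference of 0.30 (95% interval 0.01 to 0.58) and an adjusted p of 0.889. The share of all tested genes without overlap in either direction was 15.7%, so 2 of 10 is near that background.

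For the genes most reduced against WT, the intervals of the difference between Treated and Untreated mice reached from a small loss to a gain. The log2 difference was 0.17 (95% interval -0.39 to 0.73) for Egr2, 0.20 (-0.08 to 0.47) for Egr3, 0.16 (-0.21 to 0.53) for Egr1 and 0.06 (-0.26 to 0.37) for Nr4a1. In each of these 4 genes the upper end of the interval was smaller than the fitted distance of Untreated from WT mice, a distance with an error of its own that these intervals leave out. Junb (0.22, -0.12 to 0.57), Egr4 (0.32, -0.14 to 0.77), Fos (0.09, -0.38 to 0.56) and Arc (-0.27, -0.77 to 0.23) had intervals that included 0.

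Mice of 1 group differed in the set as a whole. The mean of the 10 log2 deviations from the WT mean was -0.55, -0.58 and -0.62 in Untreated mice 1 to 3, and -0.60, -0.20 and -0.43 in Treated mice 1 to 3. In WT mice it was 0.03, 0.15 and -0.19. In this mean Untreated mice were thus close together (SD 0.034), while Treated mice (SD 0.202) and WT mice (SD 0.172) were spread. Single genes differed more between Untreated mice, and in opposite directions. Egr1 deviated by -0.562, -0.806 and -0.995 in Untreated mice 1 to 3, and Egr2 by -1.66, -1.61 and -1.07. Treated mouse 2 had the highest level of its group in 7 of the 10 genes and Treated mouse 1 the lowest in 8. WT mouse 2 was the highest WT mouse in 5 genes, and WT mouse 3 was the lowest in 7.

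Once each group's mean was taken off, the genes kept part of their common variation. Over the 9 mice, the median Pearson correlation among the 45 pairs of genes was 0.57 before and 0.35 after the group means were taken off, as a description of libraries that share depth and scaling. The highest pair after centring was Junb with Nr4a1 (r = 0.934). Egr3 with Egr4 was the lowest (r = -0.563), although both were lower in Untreated than in WT mice. Fos went with Arc within groups (r = 0.784), and it was the gene least like the mean of the set over all 9 mice (r = -0.25).

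Among the 12396 genes outside the set with a mean of at least 5 CPM, the closest to the mean of the 10 genes over the 9 mice were Etfa, which encodes a mitochondrial electron carrier (r = 0.991), the small nucleolar host gene Snhg8 (0.966), the endolysosomal channel gene Tpcn1 (0.96), Zfhx2 (0.959) and the pseudogene Oaz1-ps (0.953). After group means were taken off they were the autophagy gene Nrbf2 (0.976), the chemokine gene Cxcl14 (0.973), Gm49396 (0.972), Emp2 (0.964) and the RNA polymerase subunit gene Polr2e (0.963). None of these is a classical immediate early gene, and the highest of so many correlations over 9 mice are large by selection.

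Other genes of the same response were called in both directions. Of 20 further activity-induced transcription factors, 19 were tested and Fosl1 was too low to test. In Untreated mice 4 rose and 1 fell, and in Treated mice 3 rose and 1 fell, each against WT. Over all tested genes 4.58% rose and 6.1% fell in Untreated mice, and 0.904% rose and 2.78% fell in Treated mice. The median log2 fold change of the 19 factors was 0.12 in Untreated and 0.16 in Treated mice. In Untreated mice the number that rose was 7 without WT mouse 1, 2 without WT mouse 2 or Untreated mouse 3, 2 with the compared groups alone and 1 with the Y-linked covariate. In Treated mice it was 0 without WT mouse 2, without any 1 of the 3 Treated mice and with the Y-linked covariate. Per1, a clock gene that CREB induces, fell from 205 ± 43.9 CPM in WT to 121 ± 5.31 CPM in Untreated mice (log2 fold change -0.77 ± 0.15 (SE), adjusted p = 0.015) and to 109 ± 15.8 CPM in Treated mice (SD, n = 3), a call lost in Treated mice without Treated mouse 1 or 3 and in both groups with the Y-linked covariate. Klf6, an injury-induced zinc finger factor, rose in both groups, from 29.1 CPM in WT to 44.3 CPM in Untreated and 40.9 CPM in Treated mice. Hes1, a target of Notch, rose from 3.74 to 8.08 CPM in Untreated mice (adjusted p = 0.0086, edgeR). The stress factor Atf3 read 0.826, 2.97 and 3.87 CPM in the 3 groups and rose in both knock-in groups, as did the antiproliferative gene Btg2, at 10.9, 17.3 and 22.2 CPM.

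Most of the effectors that were called fell. Of 26 such genes, 6 fell and 2 rose in Untreated mice and 5 fell in Treated mice against WT. Over all tested genes 6.1% fell and 4.58% rose in Untreated mice, and 2.78% fell in Treated mice. The 6 that fell in Untreated mice were 3 with the compared groups alone and 1 with the Y-linked covariate, and the 2 that rose were 4 without WT mouse 1 or with DESeq2, 1 without WT mouse 2, without Untreated mouse 3 or with the compared groups alone, and 0 with the Y-linked covariate. The 5 that fell in Treated mice were 2 without Treated mouse 1 or 2, 3 without WT mouse 2, Untreated mouse 2 or Treated mouse 3 or without an expression filter, and 0 with the Y-linked covariate, and without WT mouse 1 there were 2 that rose. Plk2, a kinase that weakens overactive synapses, had the smallest P of the list in both, and fell from 253 ± 15.4 CPM in WT to 163 ± 2.03 CPM in Untreated mice (log2 fold change -0.64 ± 0.07 (SE), adjusted p = 0.00111) and to 170 ± 10.2 CPM in Treated mice (SD, n = 3). Rgs2, a brake on G protein signalling, fell in Untreated mice (117 to 65.3 CPM) and read 88.6 CPM in Treated mice without passing the threshold there. Nrn1, a neurite growth factor, rose from 38.3 to 124 CPM in Untreated mice, and the prostaglandin enzyme gene Ptgs2 was the other that rose. In Treated mice Gpr3, Dusp14, Inhba and Vgf fell beside Plk2.

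Upstream of the set stand receptors, kinases and factors already bound. Of 29 listed genes, 14 fell and 1 rose in Untreated mice, and 9 fell and none rose in Treated mice. Over all tested genes 6.1% fell and 4.58% rose in Untreated mice, and 2.78% fell and 0.904% rose in Treated mice. The 14 were 8 without Untreated mouse 3 or with the compared groups alone, 9 without Untreated mouse 2, without Treated mouse 3 or without an expression filter, and 6 with the Y-linked covariate. The 9 were 3 without Treated mouse 2, 4 without Treated mouse 3, 16 with DESeq2 and 0 with the Y-linked covariate, and without WT mouse 1 there was 1 that rose. Ppp1r1b, which encodes the dopamine-regulated phosphatase inhibitor DARPP-32, fell from 2100 ± 358 CPM in WT to 562 ± 48.1 CPM in Untreated and 839 ± 30.6 CPM in Treated mice (SD, n = 3). Adcy5, the main striatal adenylyl cyclase, fell from 1390 to 426 and 589 CPM, and Rasgrp2, an activator of Rap1, from 298 to 89.9 and 141 CPM. Mef2c, a factor that limits synapse number, was the 1 gene that rose, from 212 to 424 CPM in Untreated mice. It lost that call in 8 of the 9 fits with a mouse left out, all but the fit without WT mouse 1, and also without an expression filter, with the compared groups alone and with the Y-linked covariate. Of the 29 genes, Ppp1r1b and Drd1 are also on the list of 10 striatal projection neuron markers used below. Whether others of the 29 are enriched in these neurons was not checked, so this overlap is not a full count.

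In Treated against Untreated mice no gene of these 3 lists passed an adjusted p of 0.05 with edgeR. An unadjusted P below 0.05 was held by 4 of 19, 5 of 26 and 8 of 29 genes, against 5.5% of all tested genes. The smallest P among the transcription factors were those of Klf4 (log2 difference 0.80 ± 0.23), Hes1 (-0.51 ± 0.18) and Bhlhe40 (-0.47 ± 0.18, all SE). Among effectors they were those of Rgs2 (0.44), Nrn1 (-0.97) and Trib1 (-0.43). In the upstream list Rasgrp2 (0.64 ± 0.13), Ppp1r1b (0.58 ± 0.13) and Drd1 (0.59 ± 0.17), which encodes the D1 dopamine receptor, had the smallest P, and their adjusted p lay between 0.736 and 0.829. Atf3, Btg2, Klf6 in Treated mice, Ptgs2, Inhba, Vgf and Mef2c were named after their values were seen, to complete small counts.

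**Figure D4:**
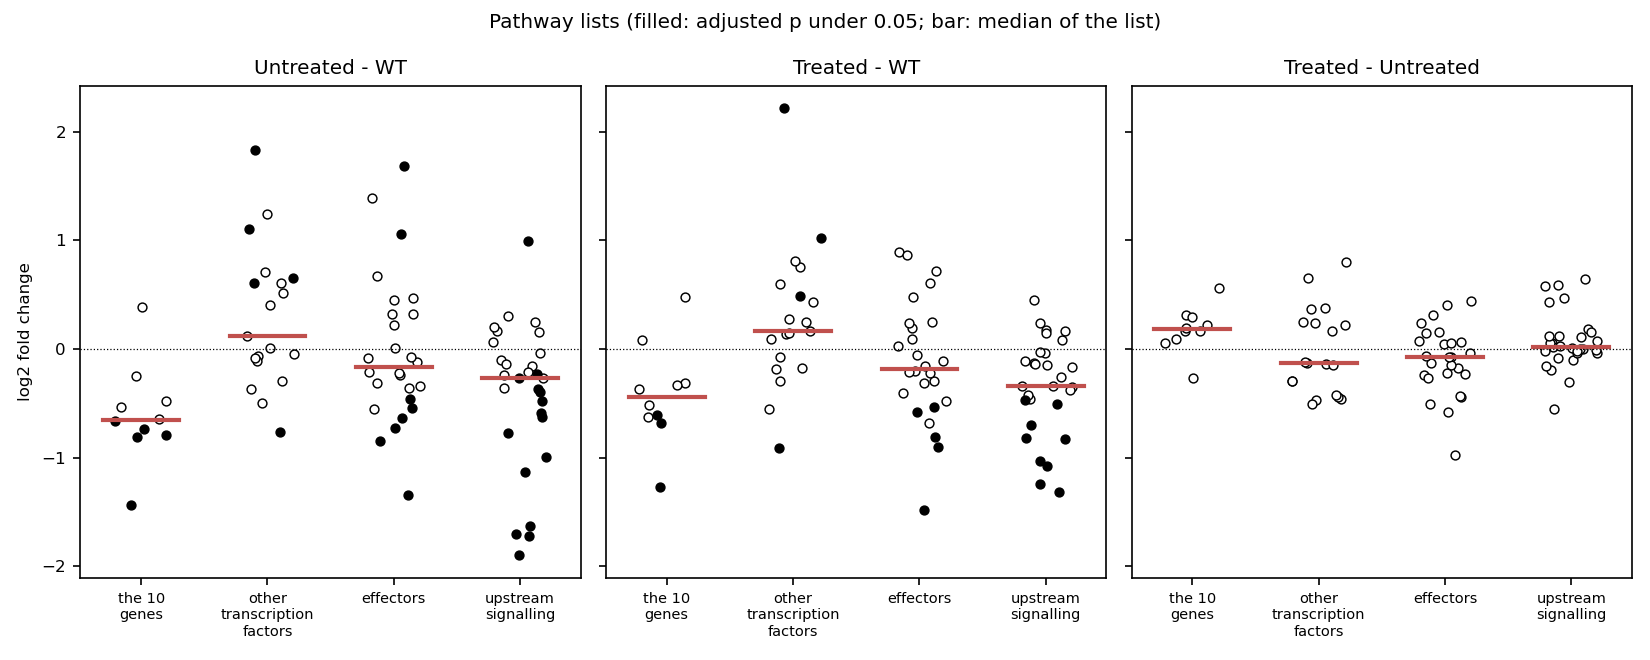
Log2 fold changes (vertical axis) of the 10 genes and of 3 lists, namely other activity-induced transcription factors, effectors and upstream signalling genes, in each comparison. Each point is a gene, filled past an adjusted p of 0.05, and the red bar is the list's median. Medians against WT are -0.66 and -0.44 for the 10 genes and 0.12 and 0.16 for the other transcription factors.

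Markers of some of the cells that could carry these transcripts also moved with the groups. Against WT, 6.1% of all tested genes fell and 4.58% rose in Untreated mice, and 2.78% fell and 0.904% rose in Treated mice. All 10 striatal projection neuron markers fell in Untreated and 8 of 10 in Treated mice against WT, and their summed level was 5930 to 7860 CPM in WT, 1900 to 2280 CPM in Untreated and 3070 to 3110 CPM in Treated mice. In bulk tissue, fewer projection neurons and less of these transcripts per neuron cannot be told apart. The paper reports that the neuronal protein NeuN did not change with treatment, and it describes these mice as lacking significant loss of neurons. NeuN was not measured there for projection neurons alone. Of 10 cortical excitatory neuron markers, 2 (Neurod2 and Cux2) rose in Untreated and none in Treated mice, and the sum was 1200 to 2370 CPM in WT, 2310 to 2910 CPM in Untreated and 1790 to 1980 CPM in Treated mice. The defining gene of that list, Slc17a7, read 383 CPM in WT, 880 CPM in Untreated and 554 CPM in Treated mice on average and did not pass the threshold. Of 8 pan-neuronal markers 1 rose in Untreated mice and none changed in Treated mice, with sums of 4490 to 5770, 5560 to 6660 and 5090 to 5430 CPM in the 3 groups. Of 8 choroid plexus markers 1 fell in Untreated mice, the list's median log2 fold change there was -3.35, and the sums were 66.3 to 3780, 37.1 to 188 and 40.0 to 1280 CPM. Of 8 endothelial markers 2 rose in each knock-in group, with sums of 183 to 220, 234 to 279 and 244 to 262 CPM. Of 8 heat shock and stress genes 1, Hsph1, fell in Untreated mice, and the sums were 1410 to 1670, 1190 to 1470 and 1180 to 1270 CPM. The highest sum was that of WT mouse 2. Of 8 oligodendrocyte markers 1 fell in Untreated and 1 rose in Treated mice, with sums of 9310 to 10200, 7320 to 8010 and 7750 to 11700 CPM. Of 8 microglia markers 1 rose in Untreated and none in Treated mice, with sums of 323 to 357, 402 to 982 and 499 to 649 CPM. Of 8 astrocyte markers none was called in Untreated mice and 1, S100b, rose in Treated mice. The astrocyte sums were 3090 to 3660, 3400 to 3770 and 3380 to 3800 CPM. Of 8 T cell markers 3 rose and 1 (Cd4) fell in Untreated mice and Cd4 alone fell in Treated mice, and Cd3d and Cd3g were at 0 in all WT mice. The 7 T cell markers other than Cd4 summed to 2.86 to 9.21, 14.9 to 78.4 and 11.2 to 22.2 CPM, with the highest value in Untreated mouse 3. The part of these markers in the results for the immediate early genes was not tested.

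**Figure D5:**
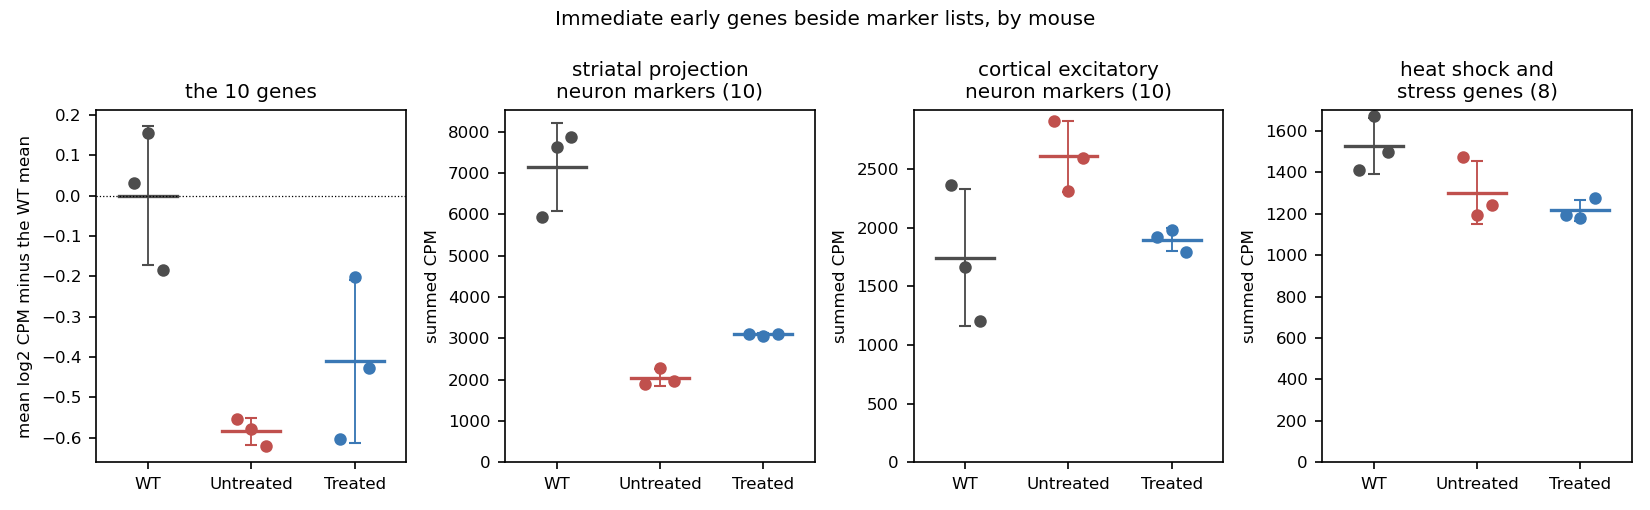
Mean log2 deviation of the 10 genes from WT (left) and summed CPM of striatal projection neuron markers, cortical excitatory neuron markers and heat shock and stress genes (from left to right) by mouse, with the group mean and SD over 3 mice. The striatal sum separates the 3 groups completely (lowest in Untreated, at 1900 to 2280 CPM), whereas the mean of the 10 genes overlaps between Untreated and Treated mice.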

How the data were processed

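Striatal RNA from 9 mice was captured with an oligo-dT primer and sequenced as 3′ mRNA libraries. The authors deposited raw counts, whole numbers per Ensembl gene without normalization. The submitters' processing notes name Trimmomatic 0.39, HISAT2 2.2.1 and featureCounts 2.0.1, whereas the study's methods name STAR. The mouse genome build and the strand setting are not given in the sources used here, so genes are placed by chromosome only, and reads of overlapping genes cannot be separated. Promoter coordinates are those of RefSeq on GRCm38.p6.

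Counts were filtered with filterByExpr, scaled by TMM and fitted for all 9 mice together with edgeR 4.0.16 (glmQLFit, glmQLFTest, 6 residual degrees of freedom) in R 4.3.3. P-values were adjusted by Benjamini-Hochberg over 19463 genes. Standard errors were derived from F, as the log2 fold change over its square root, and 95% intervals use the moderated degrees of freedom. A DEG had an unadjusted P below 0.05 and a change of at least 2-fold, the rule of the study's results, whereas its methods give 0.01. Log2 CPM used a prior count of 2. Depth was 27184356 to 32102121 counts per library. Each library is 1 mouse by its label.

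The 10 genes, the gene lists and the tests were chosen with earlier results of these data known. Named genes were the 10, the 3 of smallest P in each pathway list and comparison, and the 5 most correlated genes of at least 5 CPM. Alternatives were DESeq2 1.42.0, other scalings and filters, the compared groups alone, a replicate block, the share of Y-linked counts and each mouse left out.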

Additional observations from a re-analysis of the deposited data

How the results depend on the processing

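With 3 mice a group, a single library decided several calls. The number of the 10 genes past an adjusted p of 0.05 in Untreated against WT mice was 5, but 8 with DESeq2, 2 with the share of Y-linked counts as a covariate and 3 to 6 when each mouse was left out in turn. The lowest number came without Untreated mouse 2. In Treated against WT mice the number was 3, but 0 without an expression filter, 0 with the Y-linked covariate, and 0 to 4 when each mouse was left out, with 0 without WT mouse 2, Treated mouse 1 or Treated mouse 3. The median log2 fold change of the 10 genes lay between -0.77 and -0.48 in Untreated against WT mice over these left-out mice, with the smallest size without WT mouse 2. For the 3 pathway lists, the numbers under other settings stand beside their counts. The cause of these shifts was not tested, apart from the filter, which raised the number of genes tested from 19463 to 35346.

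No fitted value against WT changed sign in any alternative except Fosb in Treated mice, which ran from -0.0161 to 0.172 with a mouse left out, the lowest without WT mouse 1. Between Treated and Untreated mice the sign of Fos (-0.012 to 0.22), Egr2 (-0.12 to 0.38) and Nr4a1 (-0.11 to 0.16) turned without Treated mouse 2, and Nr4a1 was -0.00217 with the Y-linked covariate. All these intervals included 0. DEG counts among the 10 genes were the same in every alternative, also at an unadjusted P below 0.01.

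Over all genes, 2080 passed in Untreated and 718 in Treated against WT mice. DESeq2 passed 3473 and 1946, the compared groups alone 726 and 1044, no expression filter 1096 and 365, the Y-linked covariate 457 and 5, and leaving out a mouse 912 to 2584 and 136 to 1380. Between Treated and Untreated mice 0 passed, against 48 with DESeq2, 1 without Treated mouse 1 and 1071 at an unadjusted P below 0.05. Scaling by library size without TMM factors changed the split in Untreated mice from 1188 lower and 892 higher to 922 and 1147, and in Treated mice from 542 and 176 to 336 and 212, while 5 and 2 of the 10 genes passed.

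Mice that share a replicate number are different mice. The correlations of their deviations after centring by group lay between -0.08 and 0.24, against -0.28 to 0.16 for mice with different numbers. The highest were those of Untreated with Treated mouse 3 (0.236) and of Untreated with Treated mouse 1 (0.191). Whether a replicate number marks a shared batch was not tested. With a replicate block 7, 3 and 0 of the 10 genes passed in Untreated against WT, Treated against WT and Treated against Untreated mice.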
